A study of Mus musculus with 7 samples.

Results

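The 9 genes described here carry the insulin signal to glucose entry in fat cells, and were measured in epididymal white adipose tissue, the fat pad beside the epididymis of male mice. They are Insr, Irs1, Irs2, Pik3r1, Akt2, Tbc1d4, Slc2a4, Slc2a1 and Hk2, chosen by symbol among array probe sets that are paired with exactly 1 gene. Where a gene has several probe sets, the brightest on average stands for it, and all 9 of 9 were measured, among 19938 genes in all. The study measured 7 libraries on 1-colour arrays, 3 from aP2-XBP1 transgenic mice and 4 from wild type mice. All mice were males of 17 weeks on the C57Bl/6J background and ate standard chow. The transgene puts XBP1, which turns on genes of the unfolded protein response, under the aP2 promoter of Fabp4, which is known to be active in adipocytes and also in macrophages. Values are log2 expression after RMA, so a difference of 1 is a doubling. Replicate numbers are all the labels give, with no word on separate animals, so each p-value reflects only how these samples vary, and that variation may be technical.

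Insulin binds its receptor on the adipocyte surface, and the receptor phosphorylates IRS proteins, which recruit PI3-kinase. The lipid that PI3-kinase makes brings AKT to the membrane, where AKT phosphorylates the Rab GTPase-activating protein TBC1D4 and so releases vesicles that carry the glucose transporter GLUT4 to the cell surface. Glucose that enters is trapped by hexokinase. Much of this pathway is controlled by phosphorylation and traffic of proteins, which an RNA array does not measure.

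The 7 libraries did not hold the same tissue mixture. The epididymal duct transcripts Serpina1f, Spink8 and Defb42 averaged between 2.65 and 3.10 in the 3 transgenic libraries, against 9.31, 2.57, 9.38 and 10.05 in wild type replicates 1 to 4. Wild type replicate 2 therefore lacked them as the transgenic libraries did. The 8 smooth muscle markers averaged 6.41 to 7.01 in transgenic libraries, against 6.90 in wild type replicate 2 and 8.95 to 9.47 in the other wild type libraries. The defining adipocyte markers Adipoq and Plin1 were bright everywhere, with Adipoq at 11.69 to 11.83 in transgenic and 11.09 to 11.74 in wild type libraries. The mean of 10 measured adipocyte markers was 10.99 to 11.11 in transgenic libraries, against 11.03 in wild type replicate 2 and 10.30, 10.58 and 10.72 in wild type replicates 1, 3 and 4. In such bulk samples, fewer adipocytes and less RNA per adipocyte cannot be told apart. Xbp1, the overexpressed gene, read 9.76, 9.99 and 9.66 in transgenic libraries, against 8.90, 9.07, 8.94 and 9.19 in wild type. Every transgenic library thus lay above every wild type one, with a limma adjusted p = 0.622. Whether its probe set reads transgenic transcripts beside endogenous ones is not given, and the 2 could not be told apart.

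Of the 9 genes, 8 averaged higher in transgenic than in wild type fat, and Slc2a1 averaged lower. The 2 with the largest differences were Slc2a4, the insulin-responsive transporter GLUT4 (1.78-fold), and Hk2, the hexokinase of insulin-sensitive tissue (1.52-fold). None passed limma's test after adjustment (threshold 0.05), nor did any of the 21789 probe sets tested (0% higher and 0% lower), with 0.622 as the smallest adjusted p. At an unadjusted limma p under 0.05, 2 of the 9 were higher in transgenic fat, against 4.82% of all probe sets, and 0 were lower, against 3.12%. The groups did not overlap for 1 of the 9, Slc2a4, against 3.38% of all probe sets for genes higher and 2.44% for genes lower in transgenic fat. The median difference of the 9 was 0.34, beside 0.01 for all probe sets, of which 53.6% had a higher transgenic mean. That median was 0.19 when wild type replicate 1 was left out, and 0.00059 when the wild type group was replicate 2 alone. The values for all probe sets are not matched for brightness. By mean, the 9 genes were brighter than 69.2% (Irs2) to 98.4% (Akt2) of all probe sets.

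**Figure D1:**
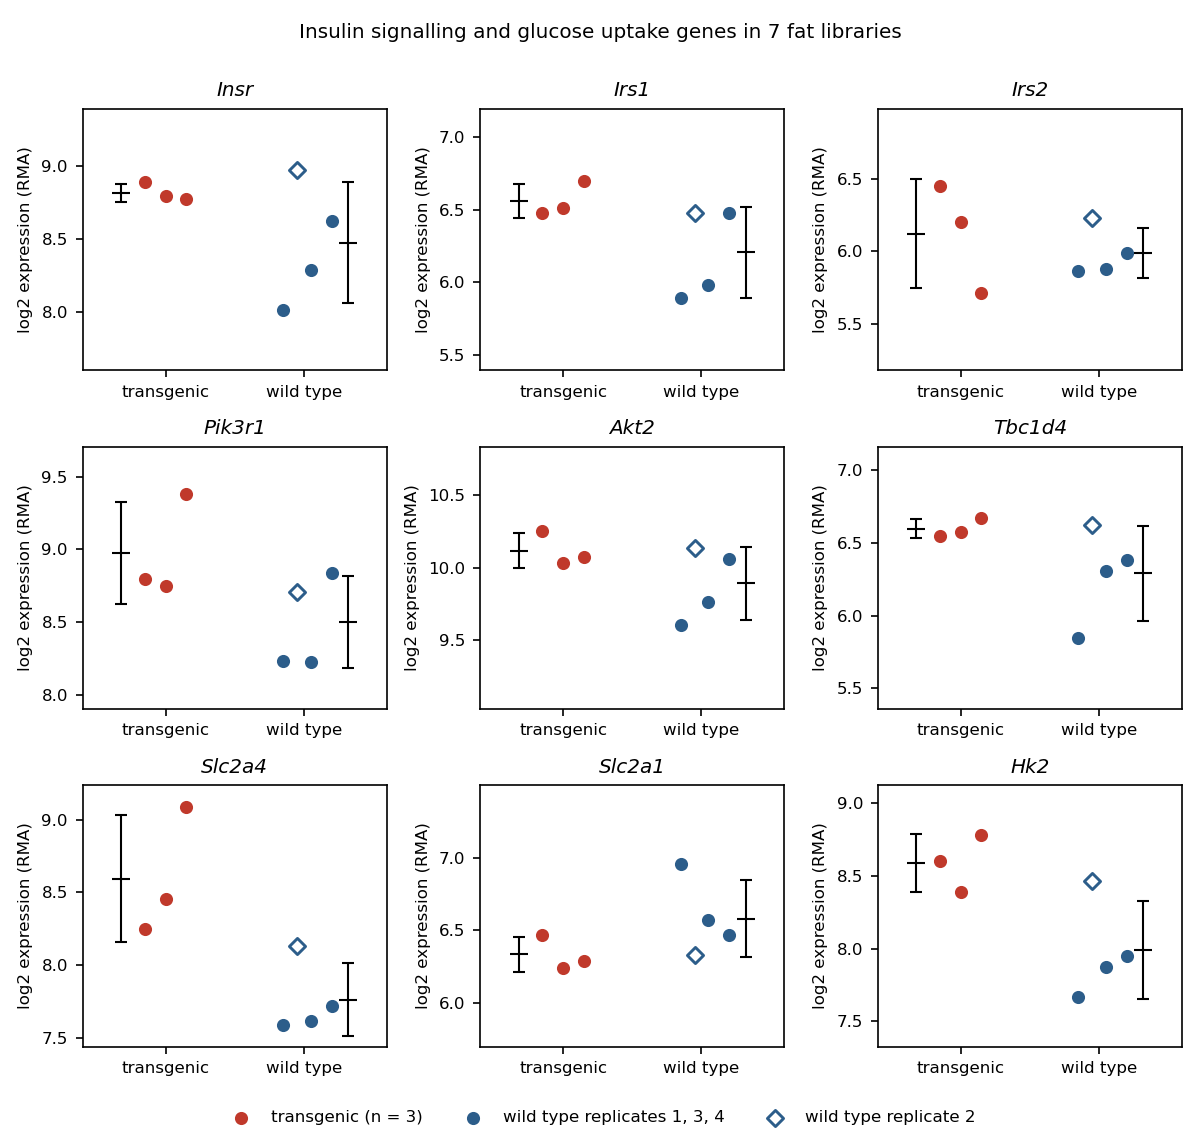
Log2 expression after RMA of the 9 genes, 1 point per library, transgenic on the left and wild type on the right of each panel, with the mean and SD (n = 3 and 4) beside the points; each panel spans 1.8 log2 units. The open diamond is wild type replicate 2, which lies above wild type replicates 1, 3 and 4 for 6 genes and below them for Slc2a1.

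The insulin receptor itself did not separate the genotypes. Insr (probe set 10576692) read 8.89, 8.79 and 8.77 in transgenic replicates 1 to 3, against 8.01, 8.98, 8.29 and 8.62 in wild type replicates 1 to 4. The transgenic libraries lay within 0.12 of each other, whereas the wild type libraries spanned 0.96, with the highest and lowest values of all 7. The difference was 0.34 (95% interval -0.19 to 0.88, limma adjusted p = 0.679). A second, dimmer Insr probe set (10576696) differed by 0.32. Against wild type replicate 2 alone, Insr differed by -0.16.

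The adaptors IRS1 and IRS2 are phosphorylated by the receptor and dock PI3-kinase. Irs1 (probe set 10356084) read 6.48, 6.51 and 6.70 in transgenic replicates 1 to 3, against 5.89, 6.48, 5.98 and 6.48 in wild type replicates 1 to 4. The lowest transgenic value equalled the highest wild type value, which wild type replicates 2 and 4 shared, so the groups touched. The Irs1 difference was 0.35 (SE 0.17, limma adjusted p = 0.639). Its other probe set (10347792) was dim, averaging 2.62 in transgenic and 2.54 in wild type libraries, and carries little information. Irs2 (probe set 10576971) read 6.45, 6.20 and 5.71 in transgenic replicates 1 to 3, against 5.86, 6.23, 5.88 and 5.99 in wild type replicates 1 to 4. Its highest and lowest values were both transgenic, and the difference of 0.13 (95% interval -0.32 to 0.58) was the smallest in size of the 9. Transgenic replicate 3 held the highest Irs1 value and the lowest Irs2 value of the 7 libraries. The Irs2 difference turned to -0.03 without transgenic replicate 1.

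RefSeq promoter windows, from 250 bases before to 50 after each start, were at hand for 7 of the 9 genes, all but Insr and Slc2a4. The Irs1 and Irs2 windows are shown because the 2 related genes, whose values differed as described, share an E-box, CACGTG in capitals, a letter pattern bound by basic helix-loop-helix factors such as USF and SREBP. The Irs1 window is chr1:82291390-82291689 and the Irs2 window chr8:11008880-11009179 (GRCm38.p6, both minus strand, printed 5′ to 3′ along the gene).
Irs1: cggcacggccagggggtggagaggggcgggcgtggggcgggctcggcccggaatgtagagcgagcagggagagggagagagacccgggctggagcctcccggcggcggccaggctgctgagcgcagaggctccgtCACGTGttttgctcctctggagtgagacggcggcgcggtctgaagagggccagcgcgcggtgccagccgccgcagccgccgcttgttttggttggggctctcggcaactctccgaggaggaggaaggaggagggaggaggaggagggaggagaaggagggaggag
Irs2: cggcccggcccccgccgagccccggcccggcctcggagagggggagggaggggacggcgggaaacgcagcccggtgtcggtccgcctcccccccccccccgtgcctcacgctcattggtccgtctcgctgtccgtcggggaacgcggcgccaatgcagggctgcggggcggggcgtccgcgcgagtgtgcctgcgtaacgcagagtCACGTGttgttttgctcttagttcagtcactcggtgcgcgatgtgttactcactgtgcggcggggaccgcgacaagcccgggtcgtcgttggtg
An E-box was held by 7.15% of all 32851 windows, searched on both strands, and by 2 of the 11 windows of these genes. It contains the shorter pattern ACGTG, so counts of the 2 patterns overlap. A match of letters is a description and shows no binding.

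Downstream of the adaptors, Pik3r1 (probe set 10411782) encodes the p85 alpha regulatory subunit of PI3-kinase. It read 8.79, 8.75 and 9.38 in transgenic replicates 1 to 3, against 8.23, 8.70, 8.23 and 8.84 in wild type replicates 1 to 4. Transgenic replicate 3 stood above all others, while wild type replicate 4 lay above the other 2 transgenic libraries. The difference was 0.47 (95% interval -0.07 to 1.02, limma adjusted p = 0.638), and 0.27 either without transgenic replicate 3 or against wild type replicate 2 alone.

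Akt2 (probe set 10374364), the AKT isoform tied to glucose uptake, read 10.25, 10.03 and 10.07 in transgenic libraries, against 9.61, 10.14, 9.76 and 10.06 in wild type. Wild type replicates 2 and 4 lay among the transgenic values and replicates 1 and 3 below them. The difference of 0.23 (95% interval -0.12 to 0.57) did not pass (limma adjusted p = 0.677). A second probe set (10551393), listed in the annotation under the same accessions, differed by 0.31, and the annotation does not tell which of the 2 lies at the Akt2 locus. Tbc1d4 (probe set 10422028), the AKT substrate AS160 that holds GLUT4 vesicles inside the cell, read 6.55, 6.58 and 6.67 in transgenic libraries, against 5.85, 6.62, 6.31 and 6.39 in wild type. The transgenic values spanned 0.13 and the wild type values 0.77, with wild type replicate 1 the lowest and replicate 2 inside the transgenic range. The Tbc1d4 difference was 0.31 (SE 0.17, limma adjusted p = 0.662).

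Slc2a4 (probe set 10387743) was the member whose groups did not overlap. It read 8.25, 8.45 and 9.09 in transgenic replicates 1 to 3, against 7.59, 8.13, 7.61 and 7.72 in wild type replicates 1 to 4. Every transgenic library lay above every wild type library, and wild type replicate 2 came nearest, 0.12 below the lowest transgenic value. The means were 8.59 ± 0.44 (SD, n = 3) in transgenic and 7.76 ± 0.25 (SD, n = 4) in wild type fat, a difference of 0.83 (95% interval 0.28 to 1.39). Ordered by limma's test, Slc2a4 stood at place 280 among all probe sets (limma adjusted p = 0.622). The exact permutation p, two-sided, was 0.0571, where the smallest that 35 splits allow is 0.0286. The difference was 0.47 against wild type replicate 2 alone and 0.96 without that library. Leaving out transgenic replicate 3, the highest, gave 0.59, and the epididymal duct score as a covariate gave 0.48. Among wild type libraries only replicate 2 had a duct score like that of the transgenic libraries. Here and below, the covariate fit therefore leans largely on that library. It is no separate check beside the comparison with wild type replicate 2 alone. Slc2a4 is also a gene of muscle. Of 6 skeletal muscle markers, Acta1, Ckm and Tnnc2 had lower means in transgenic fat (6.17, 4.90 and 4.08) than in wild type fat (8.18, 5.88 and 5.27). The other 3, Mylpf, Myh4 and Tnnt3, were dim and within 0.1 between the group means. The mean of the 6 ran from 4.06 to 4.27 in transgenic and from 4.19 to 5.21 in wild type libraries, and its part in the Slc2a4 result was not tested.

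Slc2a1 (probe set 10507594), the transporter GLUT1 that carries basal glucose in most cell types, went the other way. It read 6.47, 6.24 and 6.29 in transgenic replicates 1 to 3, against 6.95, 6.33, 6.57 and 6.47 in wild type replicates 1 to 4. Wild type replicate 1 was the highest of the 7. Wild type replicate 2 lay inside the transgenic range, and wild type replicate 4 equalled the highest transgenic value. The difference was -0.25 (95% interval -0.61 to 0.12, limma adjusted p = 0.673). It was -0.12 without wild type replicate 1, and 0.00059 against wild type replicate 2 alone. The 6 macrophage markers, from cells that also use GLUT1, averaged 8.43 to 8.74 in transgenic libraries, against 9.63, 8.81, 9.61 and 7.99 in wild type replicates 1 to 4. The 6 endothelial markers, of another such cell type, all had higher means in transgenic fat, with list means of 8.03 to 8.27 in transgenic libraries, against 7.75, 8.13, 7.96 and 7.73 in wild type replicates 1 to 4. For the endothelial markers wild type replicate 2 lay among the transgenic libraries, as it did for most of the 9 genes. For the macrophage markers it lay just above them. The part of either cell type in the results was not tested.

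Hk2 (probe set 10545588) phosphorylates glucose as it enters. It read 8.60, 8.39 and 8.78 in transgenic replicates 1 to 3, against 7.67, 8.46, 7.87 and 7.95 in wild type replicates 1 to 4. Wild type replicate 2 alone reached the transgenic range, and the other wild type libraries lay at least 0.44 below the lowest transgenic value. The means were 8.59 ± 0.20 (SD, n = 3) in transgenic and 7.99 ± 0.34 (SD, n = 4) in wild type fat. The difference of 0.60 (95% interval 0.12 to 1.08, limma adjusted p = 0.622) came with an exact permutation p = 0.0857. It was 0.13 against wild type replicate 2 alone, 0.76 without that library and 0.16 with the epididymal duct score as a covariate.

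The promoter windows of Hk2 and Slc2a1 are shown as the pair of glucose-handling genes whose differences had opposite signs. In Hk2 (chr6:82774405-82774704, minus strand) the capitals mark the letters of the unfolded protein response element TGACGTGG, to which XBP1 is known to bind, read on the opposite strand. In Slc2a1 (chr4:119108495-119108794, plus strand) they mark ACGTG, the core of the hypoxia response element.
Hk2: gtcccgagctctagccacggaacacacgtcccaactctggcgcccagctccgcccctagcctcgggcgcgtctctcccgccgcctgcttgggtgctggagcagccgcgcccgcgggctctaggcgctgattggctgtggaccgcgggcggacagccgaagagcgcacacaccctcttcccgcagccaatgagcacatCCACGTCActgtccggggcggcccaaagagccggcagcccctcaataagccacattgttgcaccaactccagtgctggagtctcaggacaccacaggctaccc
Slc2a1: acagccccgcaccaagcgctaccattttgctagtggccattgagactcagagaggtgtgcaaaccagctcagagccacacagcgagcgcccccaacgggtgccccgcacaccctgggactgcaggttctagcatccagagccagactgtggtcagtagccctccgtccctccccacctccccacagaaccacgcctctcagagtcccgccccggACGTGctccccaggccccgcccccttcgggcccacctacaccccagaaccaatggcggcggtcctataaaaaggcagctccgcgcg
TGACGTGG stood in 1 of the 11 windows, that of Hk2, at bases 198 to 205 from its 5′ end, and in 0.676% of all windows. ACGTG stood in 5 of the 11 and in 19.6% of all. It overlaps TGACGTGG in Hk2, where it also occurs at bases 25 to 29. Here too a match of letters is a description and shows no binding. The ER stress element ERSE, the second such element ERSE-II and the sterol regulatory element were in 0 of the 11 windows, and in 0.119%, 0.0365% and 0.0913% of all. Insr and Slc2a4 had no window, so neither was searched for any of these patterns.

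Wild type replicate 2 took the same side for most of the 9 genes. It lay above each of wild type replicates 1, 3 and 4 for 6 genes (Insr, Irs2, Akt2, Tbc1d4, Slc2a4 and Hk2), against 24% of all probe sets, and below them for Slc2a1, against 21.8%. Against the transgenic libraries it fell within their range for 6 genes, above it for Insr and below it for Pik3r1 and Slc2a4, where 55.2% of all probe sets fell within. Wild type replicate 1 held the lowest value of the 7 libraries for Insr, Irs1, Akt2, Tbc1d4, Slc2a4 and Hk2, and the highest for Slc2a1. Transgenic replicate 3 held the highest value for Irs1, Pik3r1, Tbc1d4, Slc2a4 and Hk2. Against wild type replicate 2 alone, 4 of the 9 differences were below 0, those of Insr, Irs2, Akt2 and Tbc1d4. Those of Slc2a4 (0.47) and Pik3r1 (0.27) were the largest. With 1 library in the wild type group these are given as values.

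**Figure D2:**
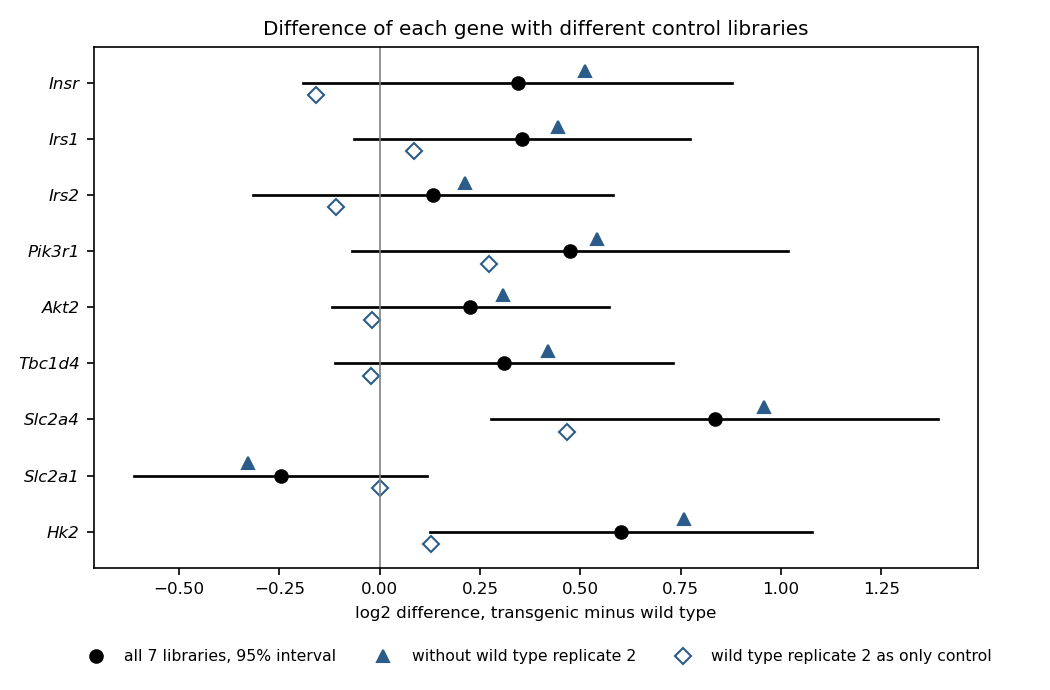
Log2 difference, transgenic minus wild type, of the 9 genes: circles with 95% intervals use all 7 libraries, triangles leave out wild type replicate 2, and open diamonds set the transgenic mean against wild type replicate 2 alone. Every diamond lies nearer to 0 than the triangle of the same gene, with Slc2a4 at 0.47 against 0.96.

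As the adipocyte markers varied between the libraries, each gene was set against their mean in the same library. On this scale, log2 value minus the mean of the 10 markers, the median of all probe sets differed by -0.40 between transgenic and wild type fat, and 27.3% of probe sets were lower and 0.266% higher at an unadjusted limma p under 0.05. None of the 9 genes passed, where 0% of all probe sets passed as higher and 0.0138% as lower. All 9 overlapped between the groups, where 0.184% of all probe sets lay wholly higher and 22.2% wholly lower in transgenic fat. Their median difference was -0.06. Insr (-0.06), Irs1 (-0.05), Pik3r1 (0.07) and Tbc1d4 (-0.10) lay within 0.1 of 0. Their lowest 95% interval bound was -0.51, for Tbc1d4, and their highest 0.53, for Pik3r1. Irs2 (-0.27) and Akt2 (-0.18) also lay below 0, so 5 of the 8 genes with a higher transgenic mean had a lower one relative to the markers. The subtraction lowers every difference by the same amount, so these 5 are the ones of the 8 with the smallest differences before it. Slc2a4 read -2.84, -2.54 and -2.03 relative to the markers in transgenic libraries, against -2.71, -2.90, -2.97 and -2.9996 in wild type. Wild type replicate 1 then lay above transgenic replicate 1, and the difference was 0.43 (95% interval -0.04 to 0.89, limma adjusted p = 0.173). Hk2 kept a difference of 0.19 (95% interval -0.22 to 0.61). Slc2a1 read -4.62, -4.74 and -4.82 in transgenic libraries, against -3.35, -4.70, -4.01 and -4.25 in wild type, a difference of -0.65 (95% interval -1.20 to -0.11, limma adjusted p = 0.173). Wild type replicate 2 again lay among the transgenic values. Without it the Slc2a1 difference was -0.86 and passed (limma adjusted p = 0.0154), in a fit that called 77.4% of all probe sets lower.

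**Figure D3:**
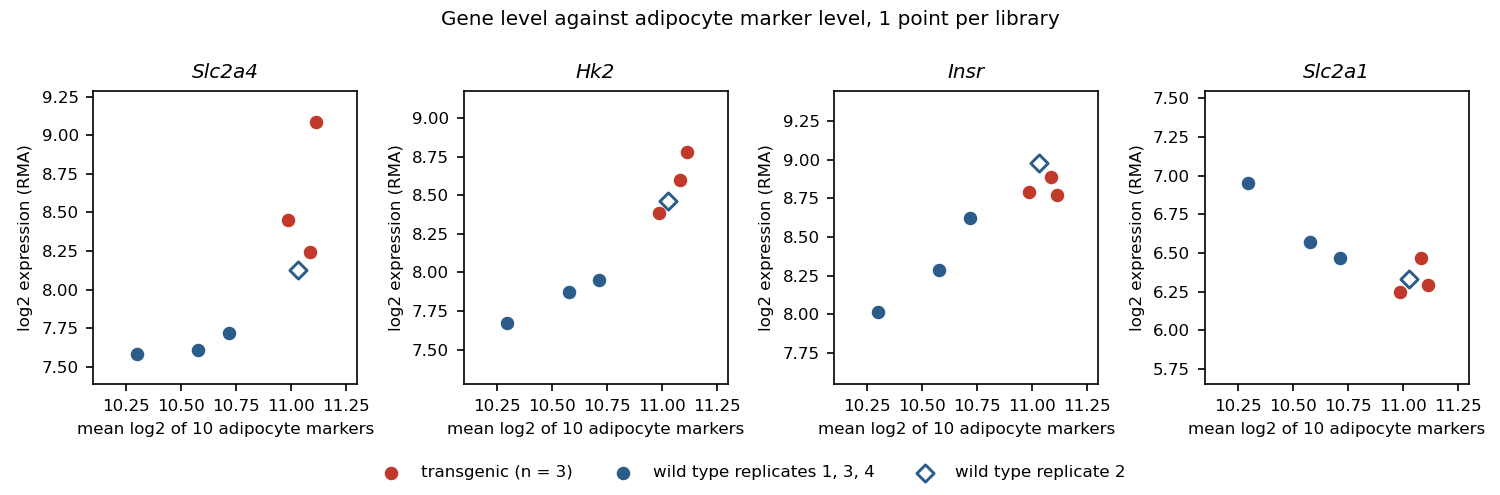
Log2 expression of Slc2a4, Hk2, Insr and Slc2a1 (vertical) against the mean log2 value of 10 adipocyte markers (horizontal) in each of the 7 libraries; each vertical axis spans 1.9 log2 units. Wild type replicates 1, 3 and 4 sit at 10.30 to 10.72 on the horizontal axis, and wild type replicate 2 sits at 11.03 among the transgenic libraries.

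Genes with the most similar pattern were sought among 9607 genes whose mean over all libraries was above the median of all probe sets, leaving out provisional gene names and large receptor families, as the smallest root mean square difference over the 7 libraries after each gene was centred on its own mean. For Slc2a4 these were Aacs, acetoacetyl-CoA synthetase (0.07), and Nudt7, a peroxisomal CoA diphosphatase (0.10). Aacs read 8.52, 8.87 and 9.43 in transgenic libraries, against 7.79, 8.49, 7.91 and 8.11 in wild type. Hk2 was nearest to Cebpa, a transcription factor of adipocyte differentiation (0.06), and Hoxc8, a homeobox factor (0.08). Cebpa read 9.27, 9.05 and 9.26 in transgenic libraries, against 8.28, 9.08, 8.42 and 8.53 in wild type, so here too wild type replicate 2 lay among the transgenic values. Pik3r1 was nearest to Gpat4, a glycerol-3-phosphate acyltransferase, and Mmab (0.10 each). Insr was nearest to Fzd4, a Wnt receptor, and Bnip3, a mitochondrial protein of the hypoxia response (0.05 each). The libraries share their tissue mixture, and these are descriptions of the closest of many genes.

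Other genes of the pathway had means on both sides. Of 91 further genes listed by role, 80 were measured, and 46 averaged higher and 34 lower in transgenic fat. Of these 0 passed in either direction, their median difference was 0.04, and 10 were higher and 2 lower at an unadjusted limma p under 0.05, against 4.82% and 3.12% of all probe sets. The groups did not overlap for 8 of the 80, against the 3.38% higher and 2.44% lower given above. Of these, Slc2a13, Aspscr1, Pygl, Eif4ebp1, Gys1 and Mtor were higher and Tbc1d1 and Stx4a lower in transgenic fat, but relative to the adipocyte markers Slc2a13 (-0.04), Aspscr1 (-0.16), Eif4ebp1 (-0.0035) and Mtor (-0.18) had lower means. Among 11 genes of GLUT4 vesicle traffic 9 had a higher mean, with a median of 0.19, and among 11 AKT targets 8 did, with a median of 0.15. These medians are not relative to the adipocyte markers, all 10 of which had a higher mean, with a median difference of 0.42. The receptor-proximal adaptors (median 0.01, 6 of 11 higher), brakes on the receptor and IRS such as Ptpn1 and Socs3 (0.04, 4 of 7) and the PI3-kinase group (-0.03, 4 of 8) had members on both sides. The adaptors ran from -0.29 to 0.59, with Sh2b2 at 0.59 and Irs3 at 0.54, and the PI3-kinase group from -0.51, at Pik3r3, to 0.07, all 3 named genes overlapping between the genotypes and chosen after their values were seen. Of the other 9 glucose transporters 3 had a higher mean, as did 6 of 11 genes of AKT and its kinases (median 0.05). For glucose phosphorylation and the first steps of use it was 6 of 12 (median 0.0058).

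The gene with the largest lower difference was Tbc1d1, the paralog of Tbc1d4 best known from skeletal muscle. It read 5.81, 5.74 and 5.78 in transgenic libraries, against 6.72, 5.97, 6.56 and 6.69 in wild type, a difference of -0.71 (SE 0.19, limma adjusted p = 0.622). Wild type replicate 2 was the lowest of its group, 0.16 above the highest transgenic value. Without that library the difference was -0.88 and passed (limma adjusted p = 0.0172), in a fit that called 84 probe sets lower and 7 higher. Against wild type replicate 2 alone it was -0.19, and with the epididymal duct score as a covariate -0.23. The smooth muscle markers and the skeletal muscle markers Acta1, Ckm and Tnnc2 were higher in the same 3 wild type libraries as Tbc1d1, while Mylpf, Myh4 and Tnnt3 were dim in all 7; their part in the result was not tested.

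An enzyme that builds glycogen chains and one that breaks them down were among these genes. Pygl, the liver-type glycogen phosphorylase, read 8.26, 8.86 and 9.42 in transgenic libraries, against 7.49, 8.24, 7.85 and 8.19 in wild type (difference 0.90, SE 0.31). Gys1, glycogen synthase, read 7.57, 7.73 and 8.03 in transgenic libraries, against 6.80, 7.42, 6.77 and 7.53 in wild type (0.65, SE 0.23). The nearest wild type library was 0.02 below the lowest transgenic one for Pygl and 0.05 below for Gys1. Eif4ebp1, the translation repressor held off by mTOR, read 9.01, 8.99 and 8.99 in transgenic libraries, against 8.39, 8.95, 8.41 and 8.64 in wild type, and Mtor itself differed by 0.22. Against wild type replicate 2 alone the differences were 0.051 for Eif4ebp1, 0.097 for Mtor, 0.36 for Gys1 and 0.60 for Pygl. With the epididymal duct score as a covariate they were 0.092 for Eif4ebp1, 0.12 for Mtor, 0.41 for Gys1 and 0.64 for Pygl. Slc2a13, a myo-inositol transporter of the same family, differed by 0.37 (SE 0.09) and stood at place 134 by limma's test. Aspscr1, the tether TUG that retains GLUT4 vesicles, differed by 0.25, and Stx4a, the syntaxin on which they fuse, by -0.08. Set against wild type replicate 2 alone, Slc2a13 differed by 0.23, Aspscr1 by 0.24 and Stx4a by -0.15. The covariate fit gave 0.24 for Slc2a13, 0.25 for Aspscr1 and -0.15 for Stx4a. With all 7 libraries and no covariate, all 8 genes had a limma adjusted p of 0.622 or above.

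**Figure D4:**
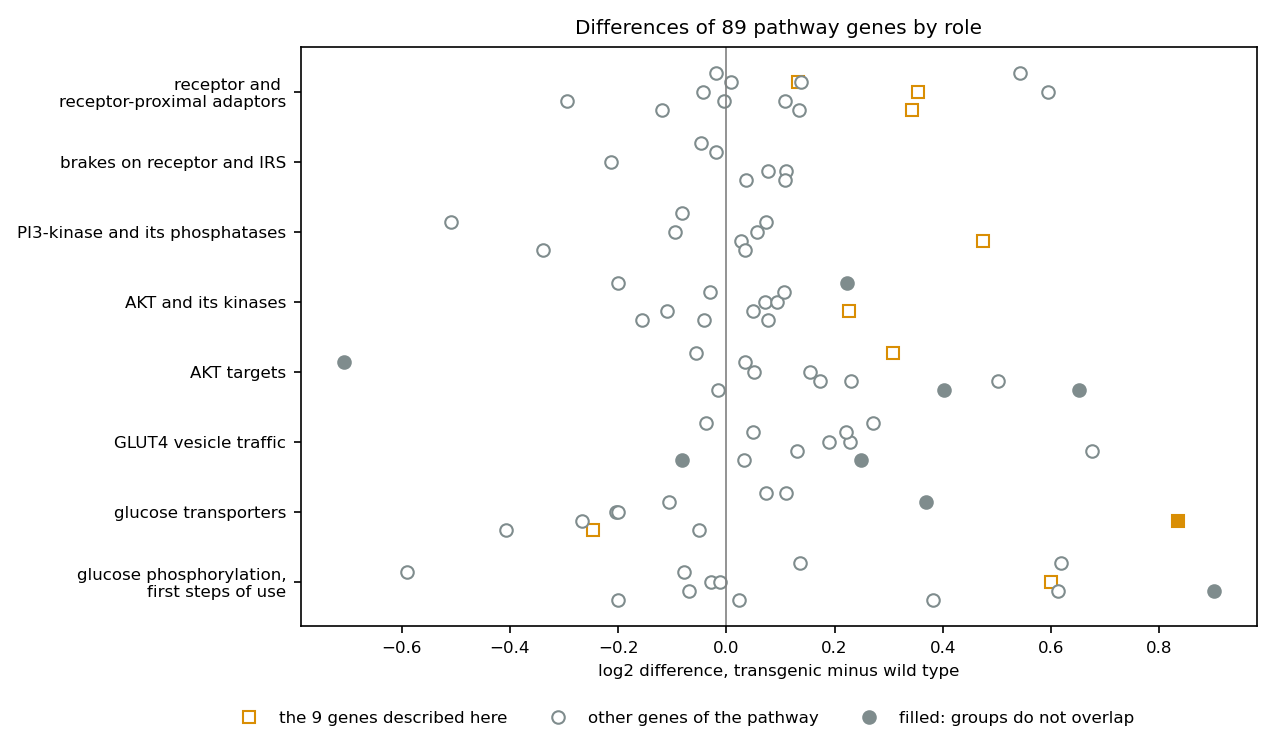
Log2 difference, transgenic minus wild type, of 89 pathway genes in rows by role (vertical offsets within a row only separate the points). Squares are the 9 genes described here and circles the other 80; filled symbols mark genes whose groups do not overlap, from Tbc1d1 at -0.71 to Pygl at 0.90.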

How the data were processed

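The deposited table holds log2 expression values of 35556 probe sets on 7 arrays, made by the authors with RMA per the submitters' processing notes, which corrects background, normalizes by quantiles and summarises probes. For its version, the probe set definition and the genome build, the sources used here give nothing. RMA gives arrays a common distribution, so a shift of all genes would not be seen. Array medians were 3.99 to 4.01 in transgenic and 4.03 to 4.04 in wild type arrays, and precision is limited by how many arrays there were. All 7 columns matched a sample, and at most 15.4% of values agreed exactly in any pair of arrays, so each counted once.

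Genes were named from GEO's annotation of the array, in which some symbols are dated. A single symbol belonged to 21789 probe sets (19938 genes), several to 1621 and none to 12146. Of 12 probe sets for the 9 genes, the one with the highest mean per gene was used. Differences, transgenic minus wild type, were fitted with limma 3.58.1 (lmFit, eBayes, two-sided) in R 4.3.3 over all 21789 probe sets, with Benjamini-Hochberg adjustment at 0.05 and genotype as the only term. Intervals are limma's 95% intervals. The fit was tested on simulated data. The members and lists were chosen with earlier results of these data known. The rule for named genes took the 9 members and Xbp1, at most 12 other pathway genes whose groups do not overlap, and the 2 genes of most similar pattern for the 4 members with the largest SD. Promoter windows came from RefSeq (GRCm38.p6). Figures used Python 3.11.15, pandas 2.3.3 and matplotlib 3.10.9. There were 20 alternatives: normalization, filters, priors, weights, a replicate block, probe set choice, control libraries, covariates and each library left out.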

Additional observations from a re-analysis of the deposited data

Results flagged for a closer look

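Among 27 sets of wild type values checked for a library far from the others, 2 stood out. Chance gives about 1 in 20 per set, but the lists were chosen with earlier results of these data known. The sets also come from the same wild type libraries, so the count cannot be read against that rate. The mean of the epididymal duct markers had wild type replicate 2 far below the rest, with a gap of 0.901 of the range of the group (2.57, against 9.31 to 10.05). The mean of 6 progenitor markers had wild type replicate 4 low, with a gap of 0.927 of the range. Transgenic libraries ran from 9.04 to 9.15 there, against 8.80 in wild type replicate 4 and 9.31 to 9.35 in the other wild type libraries. None of the 9 genes had such a library.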

How the results depend on the processing

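When the wild type group was replicate 2 alone, the 9 genes had a median of 0.00059 and the wider pathway -0.0025, with Insr -0.16, Irs2 -0.11, Akt2 -0.019, Tbc1d4 -0.023 and Slc2a1 0.00059; relative to adipocyte markers Irs1 was 0.053. With the epididymal duct score as a covariate, the 9 genes had a median of 0.023 and the wider pathway -0.0072. In that fit Insr was -0.089, Irs2 -0.065 and Irs1 relative to the markers 0.058, and 3 probe sets were called lower. It also leans largely on wild type replicate 2. Subtracting the adipocyte marker mean gave 3 probe sets lower, medians of -0.063 and -0.37, and Insr -0.063, Irs1 -0.052, Irs2 -0.27, Akt2 -0.18, Tbc1d4 -0.098, Slc2a13 -0.038, Aspscr1 -0.16, Eif4ebp1 -0.0035 and Mtor -0.18. Shifting arrays to a common median put the wider pathway at 0.076. Leaving out 1 library at a time gave 0 to 7 probe sets higher and 0 to 84 lower, the 7 and 84 without wild type replicate 2, and a median for the 9 genes between 0.19 and 0.44, and Irs2 between -0.033 (without transgenic replicate 1) and 0.34; relative to the markers Irs1 was between -0.10 and 0.017, above 0 without transgenic replicate 1 (0.0024) or wild type replicate 4, and Pik3r1 between -0.11 (without transgenic replicate 3) and 0.17. Array weights, whose estimate did not converge, gave Insr 0.055 and Irs1 0.068 relative to the markers. Slc2a4, Hk2 and Pik3r1 kept a positive log2 difference in all 20 alternatives (Slc2a4 0.43 to 1.01), and none of the 9 passed on the log2 scale, which says little for the setting with a single wild type library. Relative to the markers, Slc2a1 passed with an intensity trend (limma adjusted p = 0.0424), with array weights (so did Pik3r1, Tbc1d4, Slc2a4 and Hk2) and without wild type replicate 2 (limma adjusted p = 0.0154), where 5.09%, 93% and 77.4% of all probe sets were called lower. The cause of these moves was not tested. Replicate numbers 1 to 3 are shared by the genotypes. Deviations of same-numbered samples correlated at -0.14, -0.09 and 0.06, and 0 of 3 transgenic samples correlated best with their own number. These values show no pairing, but with so few samples and an uneven wild type tissue mixture they cannot exclude one. The replicate block, in which wild type replicate 4 has no partner and drops out, called 0 probe sets in either direction, with a median of 0.39 for the 9 genes and 0.017 for Irs1 relative to the markers. With 3 and 4 arrays, the median SE of a difference over all probe sets was 0.09, and those of the 9 genes were larger.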
